A study of Mus musculus with 2 samples.

Results

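The two-cell-like genes analysed here were the 6 Zscan4 copies (Zscan4a to Zscan4f) and Zfp352, which made up 7 of the 23889 gene symbols measured in E14 mouse embryonic stem cells (mESCs). They were selected by symbol, as the rows named Zscan4a to Zscan4f, Tcstv1, Tcstv3 or Zfp352, and Tcstv1 and Tcstv3 had no row under these names. The list of 9 symbols was chosen with earlier results of the same libraries known, so their values in the comparison between the libraries describe them and support nothing. One library came from E14 cells given a control short hairpin RNA (shRNA) and 1 from E14 cells given an shRNA against USP21, a deubiquitinase, which asks how the transcripts respond to loss of USP21. Cells of both groups were grown without feeders in serum and LIF, transfected, and harvested 3 days later, and they are called control cells and knockdown cells below. The labels give the E14 line as derived from a 19/Ola mouse, name the genotypes Normal and USP21 knockdown, and do not say which USP21 hairpin was used. There was 1 library per group and no replicate, so no difference below was tested, and culture-to-culture variation cannot be told apart from the knockdown.

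In mESC cultures a small, changing minority of cells passes through a state that resembles the cells of the two-cell embryo, in which the embryonic genome is first transcribed. Cells in this state switch on the Zscan4 cluster, Zfp352, the Tcstv genes and certain endogenous retroviruses. ZSCAN4 proteins carry a SCAN domain and zinc fingers and are known for lengthening telomeres by recombination, and Zfp352 encodes another zinc finger protein of the early embryo. In RNA from a whole culture, fewer cells in this state and less RNA per cell cannot be told apart.

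Expression was given as FPKM, the number of sequenced fragments scaled to the length of the transcript and to the total of mapped fragments, so that levels can be compared between genes. The FPKM values summed to 613617 in control cells and to 543206 in knockdown cells, and 6578 and 6638 symbols were listed at 0. The files hold no fragment counts, but low values come in steps of 1 fragment, and from these steps the depth of the control library was about 1.24 times that of the knockdown library. Usp21 itself had an FPKM of 26.2 in control cells and of 3.49 in knockdown cells, which is 13.3% of the control value. The 10 markers of embryonic stem cells, among them Pou5f1, Sox2 and Nanog, lay between 59.0 and 1849 in the control library and between 30.2 and 1285 in the other, so the labelled cell type was present in both.

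All 7 genes had a lower FPKM in knockdown cells than in control cells. The summed FPKM of the 6 Zscan4 copies was 16.3 in control cells and 5.71 in knockdown cells, or 35.1% of the control value. Sizes are given as the log2 ratio of FPKM + 0.1 in the USP21 shRNA library over FPKM + 0.1 in the control library, a scale that understates the change of low genes. On this scale the Zscan4 sum had a log2 ratio of -1.49. The sum depends less than a single copy on how fragments that match several of the near-identical copies were divided, but not wholly so, since a fragment adds more FPKM to a shorter transcript and the longest annotated transcripts of the copies run from 1745 to 2279 bases.

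Zscan4f was the highest copy in both libraries, with an FPKM of 4.998 in control cells and of 2.31 in knockdown cells (log2 ratio -1.08). Zscan4c, the copy most often studied in mESCs, had an FPKM of 3.62 and 1.12 in the same order (log2 ratio -1.61). Zscan4a had an FPKM of 3.13 and 0.602 (log2 ratio -2.20). Among the 6 copies Zscan4a lay furthest below its control value, at 19.2% of it, and is listed as an unprocessed pseudogene in GENCODE M21. Zscan4d, the copy best known from the two-cell embryo itself, had an FPKM of 2.80 and 0.990 (log2 ratio -1.41). Zscan4e had an FPKM of 1.23 and 0.441 (log2 ratio -1.30). Zscan4b, the lowest copy in both libraries, had an FPKM of 0.473 and 0.244 (log2 ratio -0.74). The control values thus spanned a wide range within the family, and the copies did not keep the same order in both libraries. Zscan4a was above Zscan4d in control cells and below it in knockdown cells.

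The share of each copy in the Zscan4 sum also differed between the libraries. Zscan4a made up 19.3% of the sum in control cells and 10.5% in knockdown cells, whereas Zscan4f made up 30.7% and 40.5%. The share of Zscan4c was 22.3% and 19.7%, and that of Zscan4b was 2.91% and 4.28%. Zscan4d (17.2% and 17.3%) and Zscan4e (7.59% and 7.72%) differed least. Without replicates these shares carry no error, and how fragments common to several copies were assigned is not given in the sources used here.

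**Figure D1:**
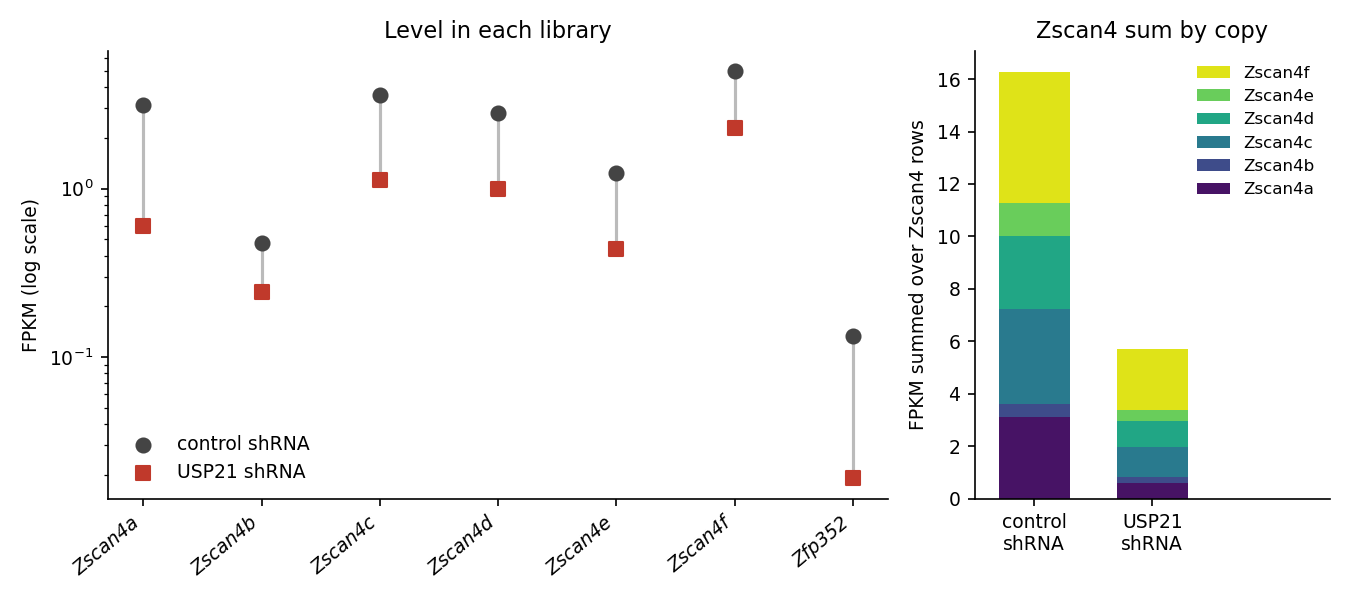
FPKM of the 6 Zscan4 copies and Zfp352 in the control shRNA library (circles) and the USP21 shRNA library (squares), 1 library each, on a log axis (left), and the FPKM summed over the Zscan4 copies on a linear axis, stacked by copy (right). Every square lies below its circle, and the stacked sum is 16.3 in control cells and 5.71 in knockdown cells.

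Zfp352 was far below the Zscan4 copies, with an FPKM of 0.134 in control cells and 0.0190 in knockdown cells. The second value was 14.2% of the first, but on the log2 scale with 0.1 added the ratio was -0.98. Zfp352 passed the expression filter used below (FPKM not under 0.1 in both libraries) only through its control value. FPKM multiplied by transcript length in kilobases is proportional to the number of fragments. For Zfp352 this product was 0.0433 in the USP21 shRNA library, and 5.76% of 2015 genes with a single annotated transcript and a value above 0 had a lower one. The Zfp352 value in knockdown cells therefore lay near the lowest values the library holds above 0. Zscan4b, the next lowest gene, had a product of 0.435, and 36.6% of these genes lay below it.

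Across all genes, lower values in knockdown cells were as common as higher ones. Of the 15316 genes past the filter, 7584 (49.5%) were lower in knockdown cells, 459 (3.00%) were at least 2-fold lower and 521 (3.40%) at least 2-fold higher, and the median log2 ratio was 0.0046. Of the 7 genes described here, 7 were lower and 5 were at least 2-fold lower, with a median log2 ratio of -1.30, but the genes were chosen with this contrast known, so nothing is read from these counts. Zscan4f, at -1.08, lay just inside the 2-fold threshold, and Zfp352, at -0.98, just outside it. Among the 5784 genes in the same range of mean expression, 326 (5.64%) were at least 2-fold lower and 354 at least 2-fold higher, with a median of 0.03. A smooth trend of the log2 ratio with transcript length was also fitted to genes whose FPKM reached 1 in either library. At the lengths of the 7 genes this trend lay between -0.10 and -0.06. The longest annotated transcripts of the 7 genes have 1745 to 2279 bases, and the 1306 genes of that length whose FPKM reached 1 in either library had a median log2 ratio of -0.07, with 41 of them (3.14%) at least 2-fold lower.

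**Figure D2:**
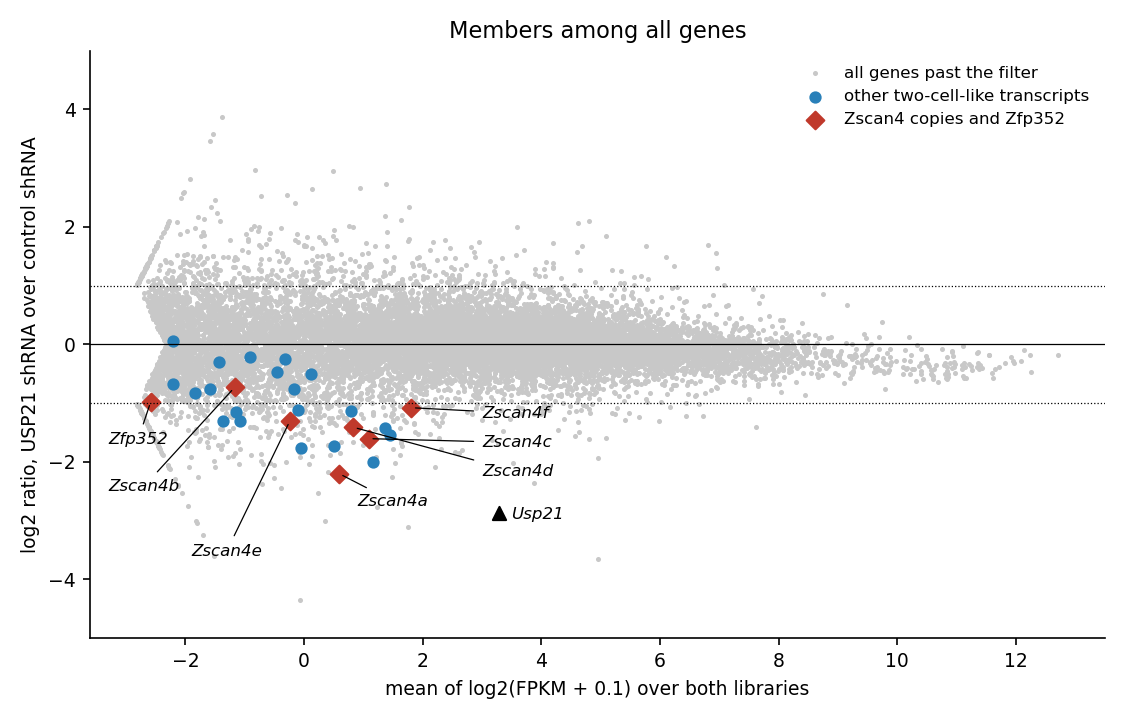
Log2 ratio of USP21 shRNA over control shRNA (vertical) against the mean of log2(FPKM + 0.1) over both libraries (horizontal) for the 15316 genes past the filter, with the Zscan4 copies and Zfp352 as diamonds, other two-cell-like transcripts as blue circles and Usp21 as a triangle. The 7 diamonds lie between -0.74 and -2.20, the dotted lines mark 2-fold, and 3 genes lie beyond the vertical axis, which ends at 5 in either direction.

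The similarity of the Zscan4 copies sets how far their values can be read one by one. Between the longest transcripts in GENCODE M21 (GRCm38), the identity of the 15 pairs ranged from 96.6% for Zscan4b and Zscan4d to 99.7% for Zscan4b and Zscan4e, with a median of 97.6%. Zscan4b and Zscan4e differed at 5 of 1722 aligned bases, and Zscan4c and Zscan4f at 7 of 1806. Words of 31 bases that occur in no other annotated gene made up 35.0% of the Zscan4d transcript and 23.3% of that of Zscan4a. For Zscan4c they made up 8.46%, for Zscan4b 4.92%, for Zscan4e 4.72% and for Zscan4f 2.39%. Zscan4d and Zscan4a, the copies with the most sequence of their own, were at 35.3% and 19.2% of their control values. Each copy also shares words with Zscan4-ps1, Zscan4-ps2 and Zscan4-ps3, which carry pseudogene symbols but are listed as protein coding in GENCODE M21 and were not analysed here. Outside the Zscan4 genes, 7.67% to 15.0% of the words of each copy occur in Gm17737 and Gm45551, also not analysed here, so the sum over 6 copies may still hold fragments of these or lack fragments given to them. Zfp352 had 78.5% of its words to itself, and the rest occur in Zfp353-ps, Enah and Gm12633.

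**Figure D3:**
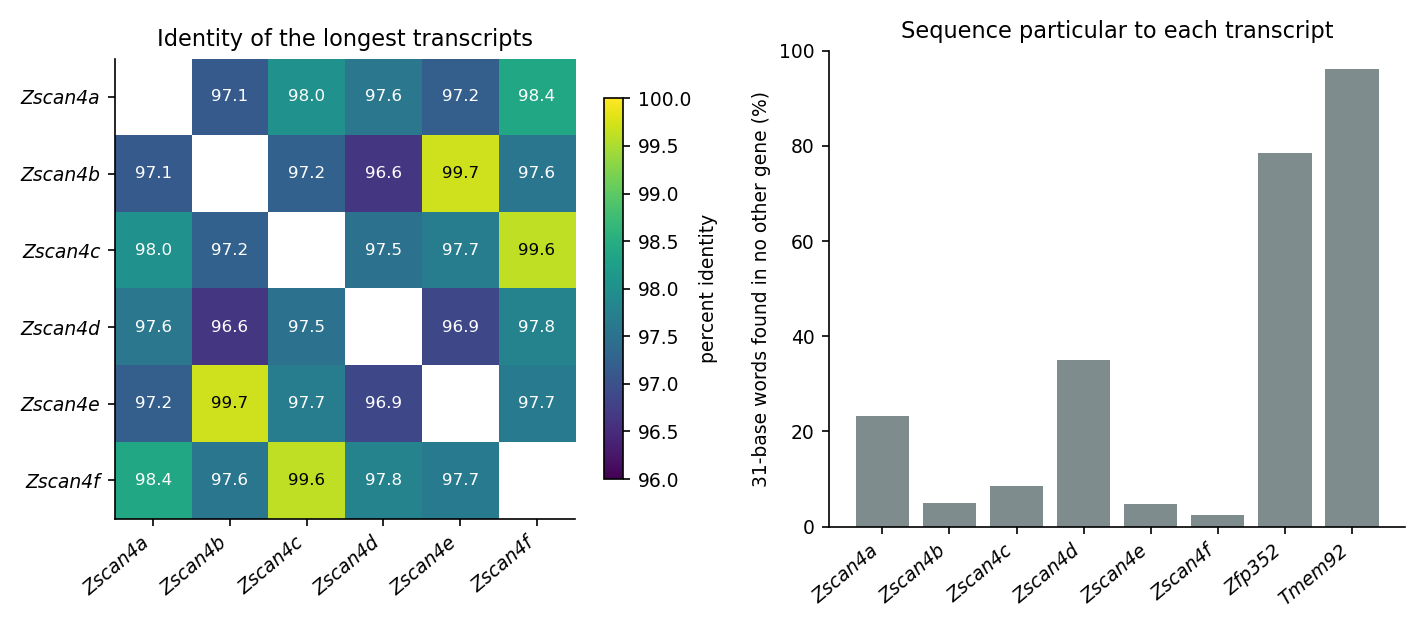
Percent identity of the aligned bases for each pair of Zscan4 transcripts (left, colour scale from 96 to 100%), and the percentage of 31-base words of each transcript found in no other annotated gene (right), with Tmem92, another two-cell-like gene, for comparison. The pairs Zscan4b with Zscan4e (99.7%) and Zscan4c with Zscan4f (99.6%) stand out, and the Zscan4 copies have 2.39% to 35.0% of their words to themselves against 96.2% for Tmem92.

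Before the transcription start, the 100 bases around the shared TATA box of 4 Zscan4 copies were close to identical as well. RefSeq promoter windows (GRCm38.p6) were matched for 5 of the 7 genes. The 100 bases are shown because they show how little separates the 4 copies around this box. The rest of the windows was not compared between copies. TATAAA is in capitals, and each sequence is written 5′ to 3′ on the strand of its gene, before the annotated start.
Zscan4b, chr7:10905052-10905151, minus strand: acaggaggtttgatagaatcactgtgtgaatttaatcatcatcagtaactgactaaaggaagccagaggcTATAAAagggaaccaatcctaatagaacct
Zscan4c, chr7:11005621-11005720, plus strand: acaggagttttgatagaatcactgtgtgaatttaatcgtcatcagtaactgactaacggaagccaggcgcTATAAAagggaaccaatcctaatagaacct
Zscan4d, chr7:11166184-11166283, minus strand: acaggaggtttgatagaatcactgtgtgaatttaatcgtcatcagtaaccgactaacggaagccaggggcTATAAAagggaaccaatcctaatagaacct
Zscan4f, chr7:11397814-11397913, plus strand: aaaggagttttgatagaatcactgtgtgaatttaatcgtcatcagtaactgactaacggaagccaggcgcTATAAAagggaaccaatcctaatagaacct

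Of the 100 bases, Zscan4c and Zscan4f differed at 1, Zscan4c and Zscan4d at 3, and Zscan4b and Zscan4f, the most different pair, at 6. TATAAA, the core of a TATA box, occurs on either strand in 12.4% of the 32851 RefSeq windows, counted over the 250 bases before the start. In Zscan4b and Zscan4f it begins 31 bases before the annotated start, in Zscan4c 54 and in Zscan4d 65. CCAAT, which does not overlap TATAAA here, follows it in all 4 copies and occurs in 33.8% of all windows. GGGCGG, the core of a GC box, was in none of the 5 windows of these genes and in 32.7% of all windows. TGCACAC, a string from the motif that ZSCAN4 itself binds, was in none of the 5 and in 3.67% of all. These matches describe letters in a window and do not show binding.

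Zfp352 had neither TATAAA nor CCAAT in its window, but TATAAG, which differs from TATAAA only in its last base, stands near the window's end. The window is shown whole because it consists largely of a short repeat. The repeated word GACAACACA is in capitals and occurs 9 times, and 582 of all windows (1.77%) hold some word of 9 bases at least as often, overlapping matches included.
Zfp352, chr4:90218570-90218819, plus strand: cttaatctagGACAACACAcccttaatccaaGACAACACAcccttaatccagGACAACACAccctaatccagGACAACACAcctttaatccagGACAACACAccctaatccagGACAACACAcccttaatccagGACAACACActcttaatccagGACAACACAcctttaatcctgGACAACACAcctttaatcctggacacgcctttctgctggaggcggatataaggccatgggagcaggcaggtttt

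Other transcripts known from the two-cell-like state were read from a list of 52 symbols, of which 41 had a row. Of these, 11 were listed at 0 in both libraries, and 20 passed the filter, 1 of them only through the control library. Of the 20, 19 were lower in knockdown cells and 10 were at least 2-fold lower, beside 49.5% and 3.00% of all genes, with a median log2 ratio of -0.97. The 10 include Gm8300, Gm5662, Gm2022, Gm2016, Gm5039 and BB287469, the last picked later for its shared sequence. Each of these shares words of 31 bases with others of them, so the 10 are not all separate measurements. The list was written with earlier results known, so these counts are a description too. The FPKM summed over the list was 28.8 in control cells and 11.0 in knockdown cells.

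Gm8994 had an FPKM of 4.57 in control cells and 1.5004 in knockdown cells, and Gm5662 had 4.40 and 1.02, with log2 ratios of -1.55 and -2.01. Gm2016 went from 4.16 to 1.48 and Gm8300 from 2.49 to 0.677, with log2 ratios of -1.43 and -1.74. These are predicted genes, and several belong to multicopy families, and words of 31 bases found in no other gene made up 10.8% of Gm2016, 10.9% of Gm5662, 38.2% of Gm8994 and 56.0% of Gm8300. Gm8994 shares most words with Gm5580, Gm5576 and Eif4a3, none of them on the list, so its value may hold fragments of these. Gm2022 (2.45 and 1.06) had no word to itself at all, and Gm5039 (1.28 and 0.538) had 63.5%. Tmem92, which encodes a membrane protein and is a single gene with 96.2% of its words to itself, had an FPKM of 1.69 and 0.427, a log2 ratio of -1.76. It was at 25.3% of its control value, beside 35.1% for the Zscan4 sum.

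A few further transcripts were picked for their roles after their values had been seen. Dux, the transcription factor that drives the two-cell programme, had an FPKM of 0.174 in control cells and 0.0722 in knockdown cells (log2 ratio -0.67). It is the transcript of the list that passed the filter only through the control library. Sp110, a nuclear body protein gene, had 0.511 and 0.148 (log2 ratio -1.30). The 5 Usp17l genes, a family of deubiquitinases, summed to 3.44 and 2.27, or 66.1% of the control value, and Usp17ld, the one transcript of the 20 that was not lower, had 0.113 and 0.122. Most of these levels are low in both libraries, where a change of few fragments moves the ratio.

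Among genes that act on the two-cell-like state, the activators listed here lay on both sides of 0. Of the 6, 3 were lower and 3 higher in knockdown cells and none by 2-fold on the log2 scale with 0.1 added, with a median log2 ratio of -0.03. With the values rescaled to the same sum in each library (TPM), 1 was lower and 5 were higher, with a median of 0.15. TPM also moved the median log2 ratio of all genes past the filter from 0.0046 to 0.18. The counts with TPM here and below hold this general shift. Dppa2 and Dppa4, partners that bind DNA and are needed for Dux expression, had FPKM values of 52.7 and 75.8 in control cells and of 69.6 and 79.6 in knockdown cells. Nelfa, a subunit of a transcription elongation complex, had 38.4 and 39.7, and Tbx3, a T-box factor, had 70.6 and 64.9. Trp53, which encodes p53, had 282 and 263. Gata2, the lowest of the list, had 0.507 and 0.218, a log2 ratio of -0.94, and at 42.9% of its control value it lay below Zscan4f (46.2%) and Zscan4b (51.6%) on the FPKM scale. No test between the lists was made.

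The 24 repressors of the state comprised chromatin regulators and their partners, and 11 were lower, 13 higher and none changed 2-fold, with a median log2 ratio of 0.04 and a range from -0.49 to 0.63. With TPM, 6 were lower and 18 higher, with a median of 0.21 beside 0.18 for all genes. Trim28, the corepressor that silences endogenous retroviruses, had an FPKM of 682 in control cells and 591 in knockdown cells. Ncl, the nucleolar protein that keeps Dux silent, had 553 and 483, and Kdm1a, a histone demethylase, had 79.0 and 61.3. Uhrf1 (161 and 165) and Dnmt1 (76.5 and 80.9), which maintain DNA methylation, and Max (77.5 and 81.0), a subunit of a Polycomb-related complex, differed by less than 10%.

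ZSCAN4 is known for its action on telomeres, and 16 of 17 telomere genes passed the filter. Of these 16, 12 were lower and 4 higher in knockdown cells, none by 2-fold, with a median log2 ratio of -0.18. With TPM, 8 were lower and 8 higher. Terf1, a protein of the shelterin complex that coats telomeres, had an FPKM of 81.4 and 59.6 (log2 ratio -0.45), and Dkc1, a subunit of telomerase, had 95.9 and 72.0 (log2 ratio -0.41). Daxx, a histone chaperone that acts with Atrx, had 24.7 and 33.6 (log2 ratio 0.44). Tinf2, another shelterin protein, had 33.7 and 33.3. The helicase gene Blm had 17.5 and 16.5.

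The 22 other genes with a Zscan or Zkscan symbol, which encode zinc finger proteins with a SCAN domain like that of ZSCAN4, lay on both sides of 0. Of these, 10 were lower and 12 higher in knockdown cells, with a median log2 ratio of 0.02. With TPM 2 were lower and 20 higher, with a median of 0.19 beside 0.18 for all genes. Zscan10, a factor of the pluripotency network, had an FPKM of 44.1 and 42.4. Zkscan17 had 15.4 and 22.2, Zscan21 had 12.5 and 12.0, and Zscan26 had 12.3 and 11.6. The one at least 2-fold lower was Zscan5b (0.288 and 0.0875), which passed the filter only through the control library, and the one at least 2-fold higher was Zkscan7 (0.784 and 1.70).

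**Figure D4:**
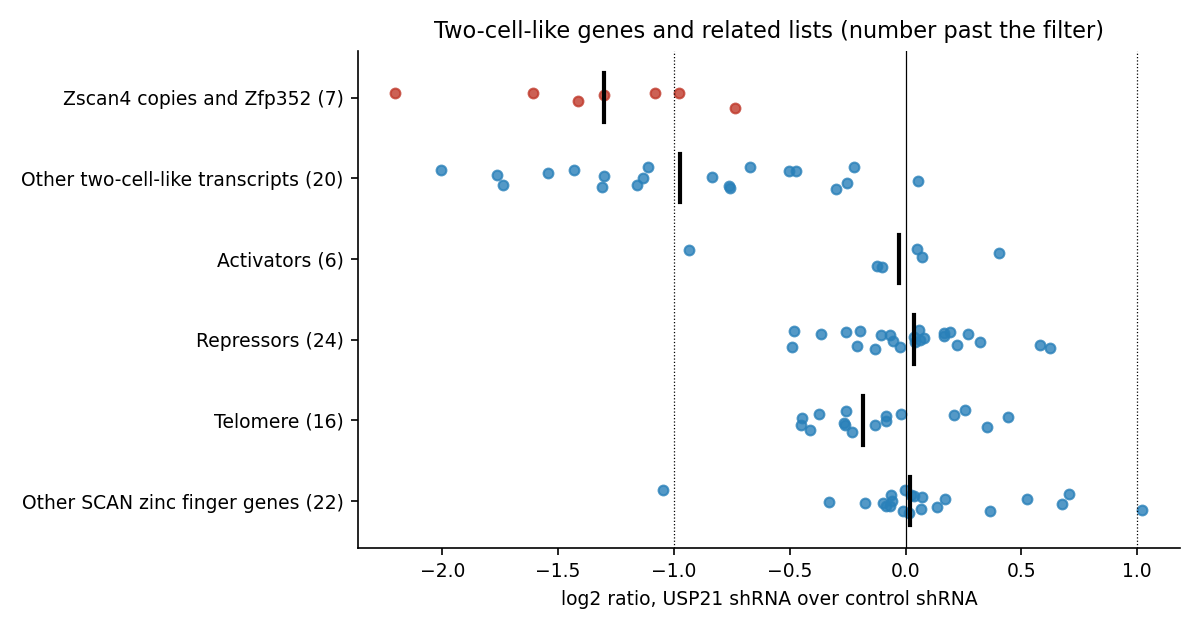
Log2 ratio of USP21 shRNA over control shRNA for the Zscan4 copies with Zfp352 and for 5 lists of related genes, 1 point per gene past the filter (number in brackets), with a bar at the median, and dotted lines at 2-fold. The medians are -1.30 for the Zscan4 copies and Zfp352 and -0.97 for the other two-cell-like transcripts, and lie between -0.18 and 0.04 for the other 4 lists.

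Markers of other cell types were read in both libraries. The 8 genes of oocytes and the early embryo summed to an FPKM of 2.09 in control cells and 2.30 in knockdown cells. Of these, 2 were listed at 0 in both. The 6 primitive endoderm markers summed to 48.6 and 42.6, but 3 were lower and 3 higher, with Sox7 at 4.68 and 1.97 (log2 ratio -1.20) and Pdgfra at 2.48 and 4.22 (log2 ratio 0.75). The 6 trophectoderm markers summed to 44.5 and 35.9, a difference carried by Krt8 (21.97 and 13.9) and Krt18 (12.3 and 8.92), while 3 of the 5 past the filter were higher and the median log2 ratio was 0.20. The 8 fibroblast markers summed to 19.9 and 7.19, most of which was Thy1 (17.3 and 5.29), while Lum was listed at 0 in both libraries and 4 of the 8 were under the filter. Of the 10 embryonic stem cell markers 9 were lower, with a median log2 ratio of -0.26, and with TPM 7 were lower. The lowest log2 ratios among them were those of Tfcp2l1 (59.0 and 30.2, log2 ratio -0.97) and Nanog (467 and 258, log2 ratio -0.86). The part of these shifts in the values of the Zscan4 genes was not tested.

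The genes with values most like those of the Zscan4 sum were Phf11d, Myl4, Krt17, Thy1 and 2510003E04Rik. Likeness was the distance between points set by the log2 ratio and the mean of log2(FPKM + 0.1) over the 2 libraries. Phf11d, a PHD finger gene, was closest, with an FPKM of 16.9 in control cells and 5.998 in knockdown cells. Myl4, a myosin light chain gene, had 15.9 and 5.03, and Krt17, a keratin gene, had 14.6 and 5.77. Thy1 had 17.3 and 5.29, and 2510003E04Rik had 17.1 and 7.06. With only 2 libraries such likeness says no more than that the values are close.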

How the data were processed

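RNA of E14 cells was sequenced, giving a library for the control hairpin and another for the USP21 hairpin, grouped by sample title. The values the authors deposited are FPKM, with a single value for each symbol in each library. The submitters' processing notes name CASAVA 1.8.2, TopHat2 2.0.14, Cufflinks 2.2.1 and the build mm9, without their settings. The annotation and the treatment of fragments that match several genes are not given in the sources used here, and this sequencing has no description in the paper. The files used here hold no counts, so the depth is unknown beyond the relative depth read from low values, and no interval or detection floor was computed.

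A pseudocount of 0.1 was added to each FPKM value, and the log2 ratio of USP21 shRNA over control shRNA was taken for all symbols. Genes under an FPKM of 0.1 in both libraries were left out, and 2-fold means a log2 ratio of 1 or more in either direction. The members and the gene lists were chosen with earlier results of these data known. All members and Usp21 are named. Of each list, at most the 6 highest genes of the control library and those changed 2-fold at an FPKM of at least 1 are named, and other names are marked as picked later, apart from the 2 Zscan genes past 2-fold, the stem cell markers and the markers of other cell types, which are named with their lists. A gene that this rule picks is not reported here. Genes like the Zscan4 sum are the 5 nearest.

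Lengths, words of 31 bases and global alignments used the longest transcript in GENCODE M21 (GRCm38), in which 94.6% of the symbols were found. Promoters were RefSeq windows of GRCm38.p6, 250 bases before to 50 after the start, of which the bases before it were searched. Zscan4a, Zscan4e, Tcstv1 and Tcstv3 were not matched. No coordinates were mixed with mm9. The choices varied were the pseudocount (1 and 0.01), the filter (none, or FPKM 1), TPM, a median of 0, a lowess correction for length (span 0.3) and the Zscan4 genes as 1 entry. The code was tested on simulated data. Python 3.11.15, numpy 2.4.6, pandas 2.3.3, statsmodels 0.14.6, Biopython 1.88 and matplotlib 3.10.9 were used.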

Additional observations from a re-analysis of the deposited data

How the results depend on the processing

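The 7 genes and the Zscan4 sum were lower with the USP21 shRNA under both other pseudocounts, TPM, the median set to 0 and the length correction. The Zscan4 sum had a log2 ratio of -1.33 with TPM and -1.36 with a pseudocount of 1, against -1.49. The median of the 7 genes, -1.30 as reported, was -1.41 with the filter at FPKM 1, which leaves out Zscan4b and Zfp352, -1.20 with the length correction, -1.49 with a pseudocount of 0.01 and -0.86 with 1. The number at least 2-fold lower was 5, but 2 with a pseudocount of 1, 6 with 0.01, 4 with the length correction, which left Zscan4f at -0.99, and 1 where the Zscan4 genes were summed to 1 entry beside Zfp352. With TPM Zscan4f (-0.92) fell short of 2-fold and Zfp352 (-1.24) passed it. The 0.1 was added after this rescaling, which raised the values, so for low genes TPM also acts as a smaller pseudocount. Zfp352 depended most on the pseudocount, with -0.15 at 1 and -2.31 at 0.01, since its FPKM lies near the constant added. Of all genes past the filter, 459 were at least 2-fold lower, 100 (0.653%) with a pseudocount of 1, 717 (4.68%) with 0.01, 397 (2.59%) with TPM and 242 of 11927 (2.03%) with the filter at FPKM 1. TPM moved the median of all genes from 0.0046 to 0.18. No paired analysis was possible because each group has 1 library. Depth limits Zfp352 and Zscan4b most, and no alternative stands in for a replicate.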
